A study of Rattus norvegicus with 12 samples.

Results

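The endothelial miRNA miR-126a, as its arms miR-126a-3p and miR-126a-5p, and the vascular pair miR-221-3p and miR-222-3p were described across sham-operated, infarcted and treated rat hearts. The members, rno-miR-126a-3p, rno-miR-126a-5p, rno-miR-221-3p and rno-miR-222-3p, were chosen by name, and all 4 were among the 758 rat miRNAs measured by the array. The hearts came from male Wistar rats whose age was not given in the sources used here. In the Sham group the left chest was opened without a ligature, in the MI group a ligature closed the left anterior descending coronary artery, and in the YQFM group the ligated rats received Yiqifumai Powder Injection, a preparation derived from the herbal prescription Shengmaifang. Sham and MI rats were given intraperitoneal saline and YQFM rats 5 mg/kg/day of the drug for 28 days, starting 4 weeks after the operation. RNA was taken from the left ventricle near the infarct, and each group had 4 arrays. Whether each array held the RNA of a single rat was not given in the sources used here. The MI group is called the chronic heart failure group in the sample labels. Such tissue mixes endothelium, muscle, fibroblasts and blood cells, so that fewer cells of a type and less RNA per cell cannot be told apart.

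MiRNAs are short RNAs that guide Argonaute proteins to messenger RNAs, mainly by pairing through their seed, bases 2 to 8, and thereby lower the output of those messages. MiR-126 is made from an intron of EGFL7, a gene for a protein that endothelial cells secrete, and is widely used as a marker of endothelium. Its 3p arm is known to repress SPRED1 and PIK3R2, which restrain vascular endothelial growth factor signalling, and its 5p arm is known to repress DLK1, which restrains endothelial proliferation. MiR-221 and miR-222 are made from neighbouring hairpins, share a seed, and are known to repress KIT in endothelial cells and the cell cycle inhibitor CDKN1B in smooth muscle cells.

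The mature sequences below, taken from RefSeq on the rat build GRCr8, show which members can share targets. All 4 members had an entry there. They are written 5′ to 3′ with the seed in capitals, and miR-126b, made from the opposite strand of the same locus, is added because it overlaps the 5p arm.
miR-126a-3p: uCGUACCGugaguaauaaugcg
miR-126a-5p: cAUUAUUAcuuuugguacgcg
miR-126b: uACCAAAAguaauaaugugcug
miR-221-3p: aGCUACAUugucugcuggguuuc
miR-222-3p: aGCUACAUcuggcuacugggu
MiR-221-3p and miR-222-3p had the same first 8 bases and were identical at 11 of 21 compared positions, so that every difference lies after the seed. Neither arm of miR-126a shared its seed with another of the 694 rat mature miRNAs in the reference, and the seed of these sisters occurred only in that pair.

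On GRCr8 the 3p arm of miR-126a lies at chr3:29813219-29813240 and the 5p arm at chr3:29813182-29813202, both on the plus strand and within the span of Egfl7 at chr3:29802481-29814966. MiR-126b lies on the minus strand at chr3:29813177-29813198, and 17 bases of miR-126a-5p were complementary to it (cauuauuacuuuuggua). RefSeq lists the hairpin of the 2 arms under the symbol Mir126b with Mir126a as a synonym, so the arms were matched by their mature names. MiR-222-3p lies at chrX:6022682-6022702 and miR-221-3p at chrX:6023246-6023268, both on the plus strand, with 458 bases between their hairpins. Both of these hairpins fall inside the spans of the genes LOC120099382 and LOC120099384. The array annotation placed the probes on the older build rn4, from 4768167 to 4768183 of chromosome 3 for miR-126a-3p and from 4768126 to 4768145 for miR-126a-5p.

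The probes set how well each member could be measured. MiR-126a-3p had 2 probes, which paired with bases 6 to 22 and 5 to 22, and miR-126a-5p had 1 probe that paired with all 21 of its bases. MiR-221-3p had probes of 19 and 20 bases. The 2 probes of miR-222-3p, shown because they are the shortest among those of the members, paired with bases 9 to 21 and 8 to 21.
shorter probe of miR-222-3p: acccagtagccag
longer probe of miR-222-3p: acccagtagccaga
The probes of miR-221-3p and miR-222-3p therefore read mostly the part after the shared seed, and the longest stretch of another mature rat miRNA that the miR-222-3p probes could pair with was 8 bases. Over repeated spots of a probe on an array, the median coefficient of variation was 1.68% and 1.56% for the 2 probes of miR-126a-3p, 12.7% for miR-126a-5p, 32.6% and 27.4% for miR-221-3p, and 23.8% and 26.6% for miR-222-3p.

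The slides and the labels touch every comparison that follows. MI replicates 1 to 3 were on slide 1, MI replicate 4 and YQFM replicate 1 on slide 2, and all Sham arrays were on slide 3 beside YQFM replicates 2 to 4. MI and Sham never met on a slide, so slide and group cannot be told apart in that comparison. With the slide as a block (a fixed block unless called random), MI replicates 1 to 3 add nothing to a ratio, since slide 1 holds no other group. The YQFM to MI ratio is then that of YQFM replicate 1 to MI replicate 4 on slide 2. The MI to Sham ratio joins this pair to the Sham and YQFM arrays of slide 3. The source names of MI replicate 4 and Sham replicate 4 gave the sham and the YQFM group, against the titles, descriptions and group entries used here; without those 2 arrays the MI group was slide 1 alone. Between 211 and 268 miRNAs were above background on an array, with the lowest number on MI replicate 3.

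Signals are given on the log2 scale after each array was divided by its 75th percentile over the 201 miRNAs above background on all arrays. A miRNA counted as above background on an array when the scanner software marked over 50% of the spots of any of its probes as well above background. Of the 758 miRNAs, 263 were above background on at least 2 of 4 arrays of a group and were tested by limma, with p-values adjusted over these 263 by the Benjamini-Hochberg method. MiR-126a-3p, miR-126a-5p and miR-222-3p were among them, and miR-221-3p was not. Because the levels of different probes depend on how each probe hybridizes, the levels of the members were not ranked against each other.

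None of the 3 tested members was called in any comparison at an adjusted p under 0.05. Over all tested miRNAs limma called 7.22% in MI versus Sham (19 of 263, 1 higher and 18 lower), 0% in YQFM versus MI and 0% in YQFM versus Sham. At an unadjusted p under 0.05 limma had 77, 50 and 15 miRNAs in these comparisons, and the methods' unpaired test had 59, 45 and 23 at that threshold and 6, 0 and 0 after adjustment. The groups overlapped in every comparison for each tested member, whereas the share of all tested miRNAs without overlap was 12.2% in MI versus Sham, 6.46% in YQFM versus MI and 6.08% in YQFM versus Sham.

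MiR-126a-3p, the guide arm of miR-126a in endothelium, was above background on all 12 arrays, and its groups overlapped. Its log2 signals were 9.48, 9.10, 9.23 and 9.45 in Sham replicates 1 to 4. In MI replicates 1 to 4 they were 9.85, 9.44, 9.45 and 9.44. In YQFM replicates 1 to 4 they were 9.44, 9.13, 9.44 and 9.25. MI replicate 1 was the highest array of the series, the other MI arrays lay inside the Sham range, and the YQFM and Sham ranges largely coincided.

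The mean log2 signal of miR-126a-3p was 9.54 ± 0.20 in MI, 9.32 ± 0.18 in Sham and 9.32 ± 0.15 in YQFM (SD, n = 4 each), so MI was the highest and Sham and YQFM could not be ordered. The MI to Sham log2 ratio was 0.23 with a standard error of 0.13 and a 95% confidence interval from -0.06 to 0.51 (limma adjusted p = 0.274), a fold of 1.17. The YQFM to MI log2 ratio was -0.23 with an interval from -0.52 to 0.06 (limma adjusted p = 0.399), a fold of 0.853. In exact two-sided permutation tests these comparisons had p = 0.286 and p = 0.0571, where 4 arrays against 4 can reach 0.0286 at the lowest. Adjusted over the exact tests of all tested members, these permutation p-values were 0.857 and 0.257. The MI to Sham ratio was 0.50 when every miRNA was read from its brightest probe (limma adjusted p = 0.0546) and 0.41 with the software's total gene signal, and the YQFM to MI ratio was -0.04 with the authors' processed values. The YQFM to Sham log2 ratio was -0.00 with an interval from -0.29 to 0.29 (limma adjusted p = 1), beside a median of -0.11 over all tested miRNAs. With the slide as a block, where MI rests on replicate 4 alone, the MI to Sham ratio turned to -0.04 and the YQFM to MI ratio became -0.00. Within slide 3 the YQFM to Sham difference was -0.04 (exact permutation p = 0.857, 3 arrays against 4).

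**Figure D1:**
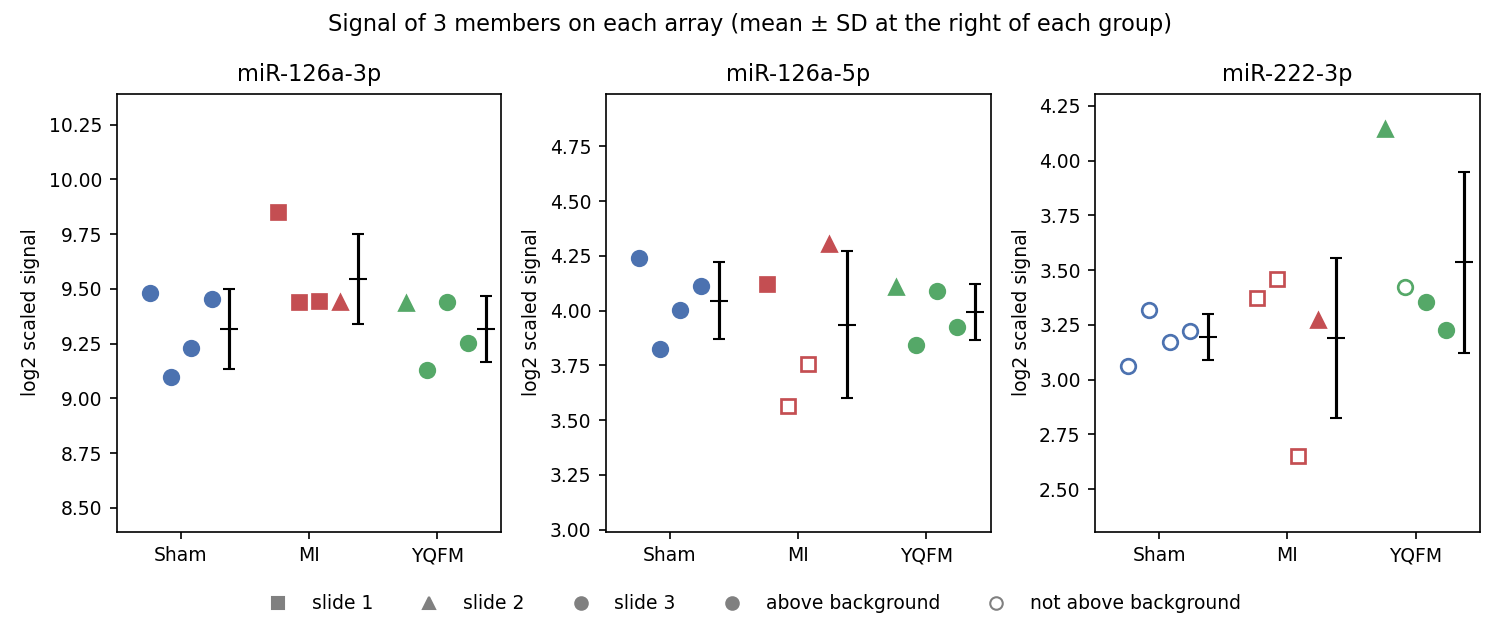
Log2 scaled signal of miR-126a-3p, miR-126a-5p and miR-222-3p on each of the 12 arrays by group, with the slide given by the marker shape, open markers for arrays not above background, and the mean ± SD (n = 4) at the right of each group. Each panel spans the same number of log2 units, and the groups overlap in all panels.

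MiR-126a-5p, the other arm of the same hairpin, was near the lower limit of the measurement, and its groups overlapped too. It was above background on 10 of 12 arrays, all but MI replicates 2 and 3. Its log2 signals were 4.24, 3.83, 4.00 and 4.11 in Sham replicates 1 to 4. The MI arrays gave 4.12, 3.57, 3.76 and 4.30 in the same order. The YQFM arrays gave 4.11, 3.85, 4.09 and 3.93. The MI group held both the highest and the lowest array and enclosed the other groups.

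The mean log2 signal of miR-126a-5p was 4.05 ± 0.18 in Sham, 3.99 ± 0.13 in YQFM and 3.94 ± 0.34 in MI (SD, n = 4 each), an order in which no neighbours differed beyond their spread. The log2 ratio was -0.11 for MI to Sham (95% confidence interval from -0.46 to 0.24, limma adjusted p = 0.711) and 0.06 for YQFM to MI (from -0.29 to 0.41, limma adjusted p = 0.916). For YQFM to Sham it was -0.05 (from -0.40 to 0.30, limma adjusted p = 0.944). With the slide as a block, where MI rests on replicate 4 alone, the MI to Sham ratio turned to 0.10 and the YQFM to MI ratio to -0.19. Within slide 3 the YQFM to Sham difference was -0.09 (exact permutation p = 0.457).

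**Figure D2:**
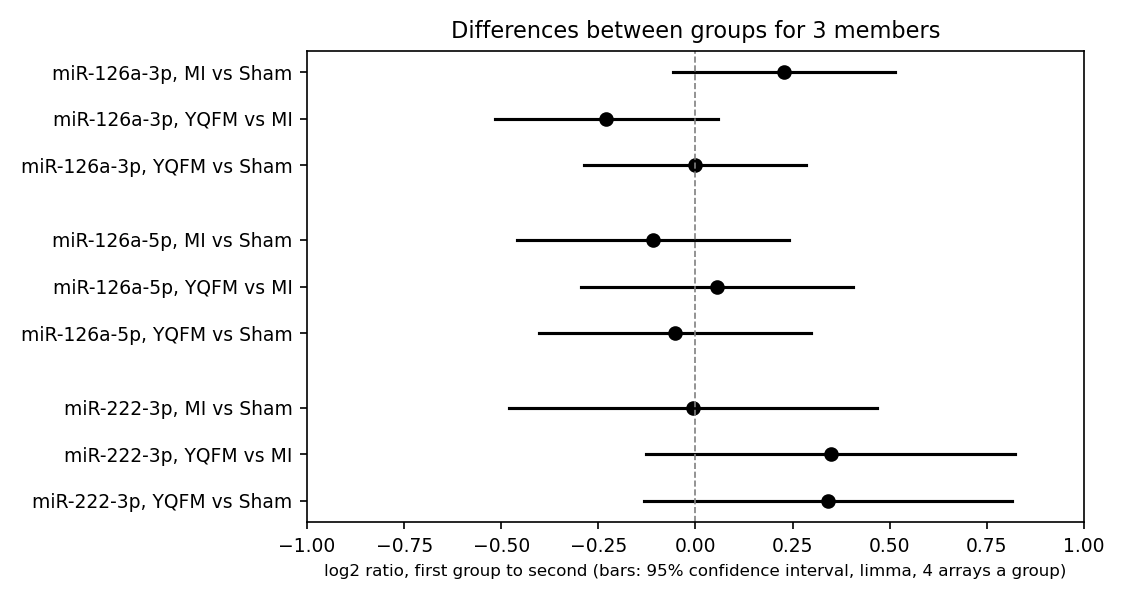
Log2 ratios of miR-126a-3p, miR-126a-5p and miR-222-3p between the groups (horizontal axis), with points for the limma estimates and bars for their 95% confidence intervals (4 arrays a group). All 9 intervals include 0. The highest estimates are those of miR-222-3p for YQFM to MI (0.35) and YQFM to Sham (0.34). MiR-222-3p entered the tests only through YQFM, so these estimates are not independent of that choice.

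The arms of miR-126a were also compared within each array, as the log2 signal of miR-126a-3p minus that of miR-126a-5p, which does not depend on the scaling between arrays. Its size depends on the probes and is no ratio of molecules, so only its differences between arrays were read. The 4 Sham arrays gave 5.24, 5.27, 5.23 and 5.34, and the 4 YQFM arrays gave 5.33, 5.29, 5.35 and 5.33. The MI arrays gave 5.73, 5.87 and 5.69 for replicates 1 to 3 and 5.14 for replicate 4. The first 3 MI arrays thus lay above every other array and the remaining one lay below every other array. On MI replicates 2 and 3 miR-126a-5p was not above background, so their differences rest on a signal at the limit of the measurement.

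The group mean of this difference was 5.61 ± 0.32 in MI, 5.27 ± 0.05 in Sham and 5.32 ± 0.03 in YQFM (SD, n = 4 each). MI minus Sham was 0.34 and YQFM minus MI was -0.28, and each had p = 0.143 in an exact two-sided permutation test (adjusted over the 3 comparisons, 0.143). YQFM minus Sham was 0.05 (exact permutation p = 0.114, adjusted 0.143). With normexp background correction MI minus Sham was 0.20 and YQFM minus MI was -0.24 (exact permutation p = 0.171 and 0.143). The offset of 50 added by this correction shrinks log2 differences between arrays for the weak miR-126a-5p. The split within the MI group ran along the slides, with 5.69 to 5.87 on the 3 arrays of slide 1 and 5.14 to 5.35 on the 9 arrays of the other slides. Without MI replicate 4 and Sham replicate 4, the arrays with conflicting source names, MI minus Sham was 0.52 and YQFM minus MI was -0.44 (exact permutation p = 0.1 and 0.0571, the smallest that these numbers of arrays allow). Without slide 1, where only MI replicate 4 remained in its group, MI minus Sham was -0.13 and YQFM minus MI was 0.19.

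The same split appeared with either probe of miR-126a-3p, at 4.41 to 4.60 on slide 1 against 3.95 to 4.16 elsewhere for one and at 6.35 to 6.54 against 5.78 to 5.99 for the other. As a measure of how bright and dim signals stood to each other on an array, the median of the 15 tested miRNAs within 0.5 log2 units of the mean signal of miR-126a-3p minus that of the 60 within 0.5 of miR-126a-5p was taken, and it was 5.41 to 5.42 on slide 1 and 5.04 to 5.64 on the others. The 4 Sham arrays, at 5.04 to 5.31, were all below slide 1 in this measure. MI minus Sham was 0.21 in it (exact permutation p = 0.0571), YQFM minus Sham 0.21 (exact permutation p = 0.0857) and YQFM minus MI 0.01 (exact permutation p = 1). Among 34 other hairpins with both arms above background often enough to be tested, the brighter minus the dimmer arm was above all other arrays on the 3 arrays of slide 1 in 7 and below them in 3, with a median shift of 0.20, against 0.49 for miR-126a. Ligated hearts were also on the other slides, where the arm difference of miR-126a was 5.14 on MI replicate 4 and 5.29 to 5.35 on the drug-treated YQFM arrays. Between MI and Sham, slide and infarct cannot be told apart, and the cause of the split was not tested.

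**Figure D3:**
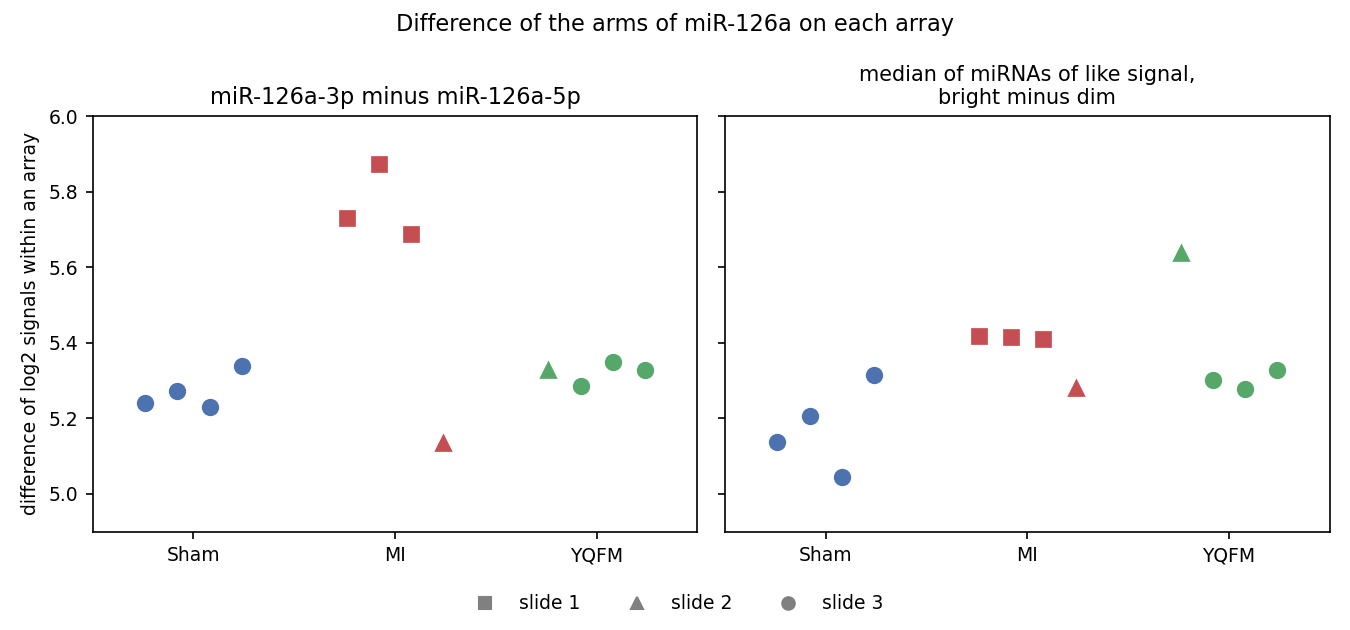
Difference of log2 signals within each array, miR-126a-3p minus miR-126a-5p at the left and the median of 15 miRNAs of like signal to the former minus that of 60 of like signal to the latter at the right, by group and slide (marker shape). The 3 slide 1 arrays lie at 5.69 to 5.87 at the left and at 5.41 to 5.42 at the right, where YQFM replicate 1 is the highest at 5.64.

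On the arrays of slide 3 the arms moved together. Over the 7 arrays of slide 3, which are Sham and YQFM hearts, Pearson's r between the log2 signals of the arms was 0.953 and Spearman's rho 0.964 (exact permutation p = 0.00198 and 0.00278, adjusted over 3 pairs of members 0.00595 and 0.00833). The correlations between members were not among the planned tests, and those over slide 3 and over all arrays were adjusted separately. Without the 2 arrays farthest from the median of miR-126a-3p, r was 0.943 over the remaining 5. These points share their RNA, array and scaling, and over the same arrays the median r of miR-126a-3p with 200 other miRNAs above background throughout was 0.407, with 1 of the 200 at least as high as miR-126a-5p. Over all 12 arrays r was 0.372 and rho 0.420 (permutation p = 0.224 and 0.178, adjusted 0.672 and 0.535), and r was 0.270 without the 2 farthest arrays. With miR-222-3p over the 12 arrays r was 0.0181 for miR-126a-3p and 0.129 for miR-126a-5p (adjusted permutation p = 0.961 for both). Over the 7 arrays of slide 3 these values were -0.517 and -0.688 (exact permutation p = 0.233 and 0.0885, adjusted 0.233 and 0.133), and -0.0985 and -0.380 without the 2 farthest arrays.

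**Figure D4:**
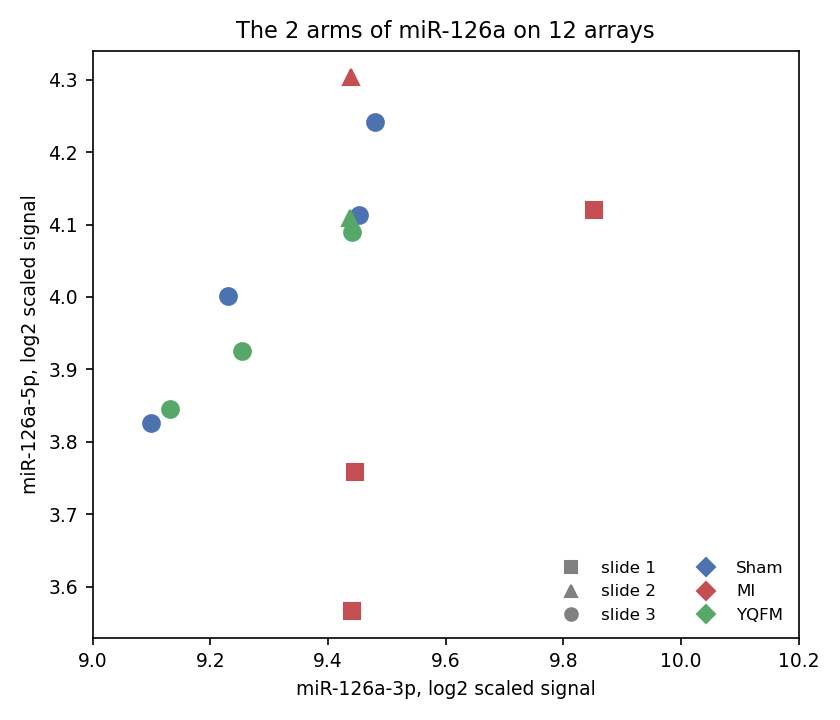
Log2 scaled signal of miR-126a-5p (vertical) against that of miR-126a-3p (horizontal) on 12 arrays, with the group given by colour and the slide by marker shape. The 7 slide 3 arrays follow a rising line (r = 0.953), and the 3 slide 1 arrays lie to the right of it.

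MiR-222-3p, which is known to limit endothelial migration through KIT, was near background in all groups, and above it background on 4 of 12 arrays, namely MI replicate 4 and YQFM replicates 1, 3 and 4. Its log2 signals were 3.06, 3.32, 3.17 and 3.22 in Sham replicates 1 to 4, none of them well above background. The MI arrays gave 3.37, 3.46, 2.65 and 3.27, and the YQFM arrays gave 4.14, 3.42, 3.35 and 3.23. YQFM replicate 1 was the highest array, MI replicate 3 the lowest, and the remaining YQFM arrays overlapped both other groups.

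The mean log2 signal of miR-222-3p was 3.54 ± 0.41 in YQFM, 3.19 ± 0.11 in Sham and 3.19 ± 0.37 in MI (SD, n = 4 each), and no neighbours in this order differed beyond their spread. The YQFM to MI log2 ratio was 0.35 (95% confidence interval from -0.13 to 0.82, limma adjusted p = 0.456), with 3 and 1 of 4 arrays above background. MiR-222-3p entered the tests only through YQFM, the only group with at least 2 arrays above background. Against Sham, where no array was above background, the YQFM mean was 1.27-fold higher with the processing used here. The log2 ratio was 0.34 (interval from -0.13 to 0.82, limma adjusted p = 0.664, exact permutation p = 0.0571, adjusted 0.257), and limma did not call it. This fold is the ratio of the group means and no lower bound, since the interval runs from negative to positive values. Both values moved with the processing. The YQFM to MI and YQFM to Sham log2 ratios were 0.05 and 0.06 with normexp background correction. Its added offset of 50 shrinks log2 ratios of signals as weak as these. The ratios were 0.13 and 0.21 with the software's total gene signal, and 1.97 and 0.68 with the authors' processed values. Among the latter MI replicate 3 stood at 0.1, which stands for nothing measured, and the other MI arrays at 10.5 to 13.2. Sham replicate 1 stood at 5.24. The MI to Sham log2 ratio was -0.01 (from -0.48 to 0.47, limma adjusted p = 0.996). Without YQFM replicate 1, which leaves the Sham and YQFM arrays of slide 3, the YQFM to Sham difference was 0.14 (exact permutation p = 0.114). On slide 2 YQFM replicate 1 exceeded MI replicate 4 by 0.87. With the slide as a block, where MI enters only through that pair, the MI to Sham ratio was -0.73.

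MiR-221-3p, the partner of miR-222-3p with the same seed, was above background only on YQFM replicate 1. Its scaled signals on the linear scale, before values were set to the floor of 5.20, were 3.81, 2.66, 4.73 and 3.45 in Sham. They were 7.40, 6.03, 2.75 and 6.46 in MI and 13.8, 4.57, 2.57 and 4.17 in YQFM, in the order of the replicates. All Sham arrays were under the floor, as were MI replicate 3 and YQFM replicates 2 to 4. With 1 measured array it was not tested and no fold is given.

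On the same linear scale the signals of miR-222-3p were 8.36 to 9.99 in Sham, 6.29 to 10.99 in MI and 9.36 to 17.7 in YQFM. YQFM replicate 1 was the highest array of both miRNAs. The processed values deposited by the authors, in which 0.1 stands for nothing measured, had miR-221-3p above 0.1 on 5 arrays, namely MI replicates 1, 2 and 4 and YQFM replicates 1 and 4, and miR-222-3p on 11. The presence of these miRNAs on an array therefore depended on how weak signals were called.

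**Figure D5:**
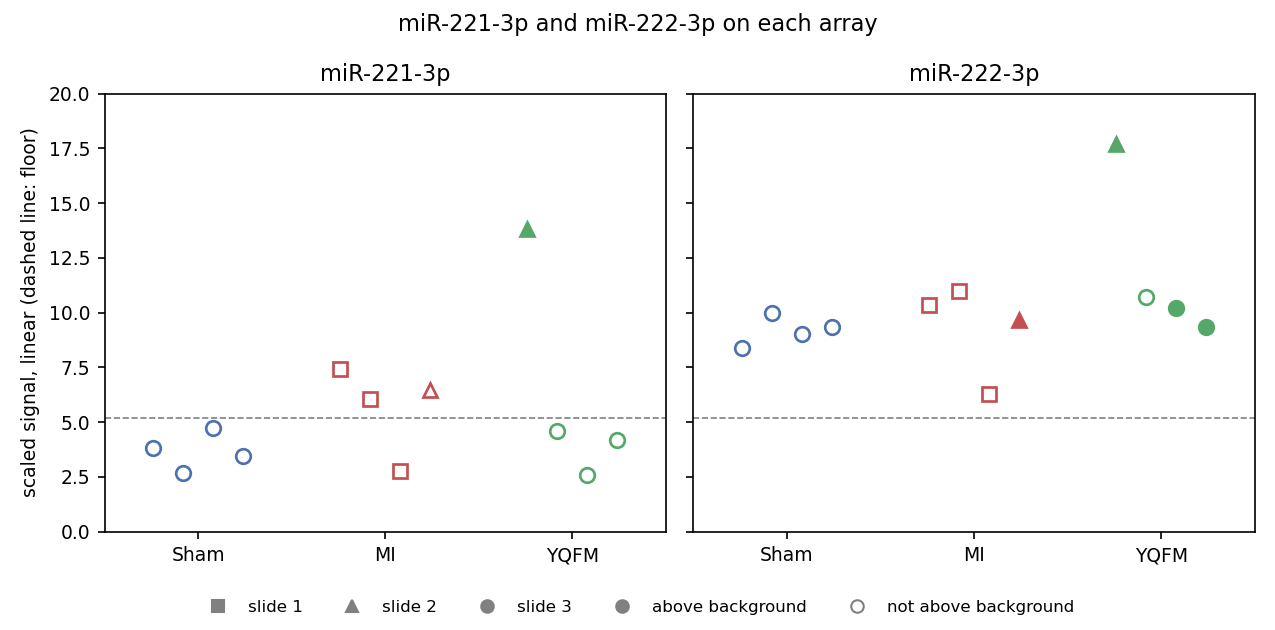
Scaled signal of miR-221-3p and miR-222-3p on a linear axis for the 12 arrays by group, with the slide given by marker shape, open markers for arrays not above background and the floor of 5.20 as a dashed line. YQFM replicate 1 stands highest in both panels, at 13.8 and 17.7.

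The other products of these hairpins were not measurable. MiR-126b, miR-221-5p and miR-222-5p were above background on none of the 12 arrays, and their scaled signals lay from -3.15 to -0.62 after background subtraction.

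The miRNAs whose deviations from the group means were most like those of a member were sought among the 200 others above background on all 12 arrays, by Pearson's r over the 12 arrays. For miR-126a-3p they were miR-20a-5p (0.957), miR-322-5p (0.941) and miR-210-3p (0.875). For miR-126a-5p they were miR-30a-5p (0.958), miR-499-5p (0.950) and miR-139-3p (0.929). For miR-222-3p they were miR-199a-5p (0.889), miR-125b-5p (0.889) and miR-140-5p (0.888). Without subtracting the group means r was 0.758, 0.900 and 0.529 for the neighbours of miR-126a-3p. For those of miR-126a-5p and miR-222-3p it was 0.810 to 0.940. The neighbours of the arms did not coincide, and the deviations of the arms from each other had r = 0.596. All these values describe 12 arrays that share slides and scaling, and the neighbours are the highest of 200.

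Other miRNAs of endothelium and vessel growth were described as a list of 29, of which 22 were tested and 5 were above background on no array. The list holds miR-92a-3p and its cluster mates miR-19b-3p and miR-20a-5p, and miR-210-3p, which hypoxia induces. In MI versus Sham, 0 of the 22 were called higher and 1 lower, where the share called over all tested miRNAs was 7.22%, and their median log2 ratio was 0.09 beside -0.04 over all tested miRNAs. In YQFM versus MI the median was -0.06 beside -0.01, and in YQFM versus Sham 0.01 beside -0.11, with 0 called by limma in each.

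The called miRNA was miR-296-5p, which is known to raise growth factor receptor levels in endothelial cells, with a mean log2 signal of 7.17 ± 0.46 in MI and 7.97 ± 0.23 in Sham (SD, n = 4 each) and a log2 ratio of -0.80 (limma adjusted p = 0.0456). With the slide as a block, where MI rests on replicate 4 alone, the ratio was 0.21. The call was kept in 5 of 29 alternatives. Leaving out any Sham array, any of MI replicates 1 to 3 or any of YQFM replicates 2 to 4 ended it (limma adjusted p from 0.0602 to 0.148). The next by p were miR-19b-3p at -0.44 (limma adjusted p = 0.0861) and miR-92a-3p at -0.24 (limma adjusted p = 0.153). In YQFM versus MI miR-296-5p had a log2 ratio of 0.61 (limma adjusted p = 0.134), miR-130a-3p -0.32 (0.456 by the same test) and miR-100-5p -0.25 (0.515). Without MI replicate 4 limma also called miR-19b-3p in MI versus Sham (-0.52, adjusted p = 0.0442) and miR-296-5p in YQFM versus MI (0.81, adjusted p = 0.0153). In YQFM versus Sham the values were -0.44 for miR-19b-3p (limma adjusted p = 0.452), 1.17 for miR-31a-5p, which was above background on 7 of 12 arrays (limma adjusted p = 0.664), and -0.22 for miR-20a-5p (limma adjusted p = 0.664).

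Markers of the other cells of the ventricle were set beside the members. The summed scaled signal of 6 cardiomyocyte miRNAs, among them miR-1-3p, miR-133a-3p and miR-133b-3p, ranged from 10051 to 13406 in Sham, 9414 to 11788 in MI and 9208 to 11483 in YQFM. Of the 6, 4 were above background on all arrays, while miR-208b-3p was on none. Such a sum is weighted to the strongest probe signals, here miR-1-3p and miR-133b-3p (mean log2 signals 12.3 and 12.4, against 8.26 for miR-133a-3p). The sum of 7 fibroblast miRNAs, among them miR-21-5p and miR-29b-3p, ranged from 2411 to 3179 in Sham, 2645 to 4055 in MI and 2626 to 4208 in YQFM. The largest mean log2 signal among them was that of miR-29a-3p, 10.5. In MI versus Sham none was called, where limma called 7.22% of all tested miRNAs. Their median log2 ratio was 0.56 beside -0.04 over all tested miRNAs, with 5 of 7 positive, and miR-29b-3p and miR-29c-3p at -0.0003 and -0.19. The ranges were 503 to 612, 381 to 606 and 432 to 552 for 4 smooth muscle miRNAs, of which the 2 minor arms were above background on no array. For 6 leukocyte miRNAs they were 331 to 386, 322 to 411 and 328 to 398, with miR-142-3p and miR-142-5p above background on no array. For 4 erythrocyte miRNAs they were 198 to 251, 162 to 214 and 165 to 199, with both arms of miR-144 above background on no array. The part of these cell types in the values of the members was not tested.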

How the data were processed

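MiRNAs were measured on 12 Agilent 1-colour rat arrays, 4 each for Sham, MI and YQFM, grouped by title. The authors deposited spot intensity values from Feature Extraction 10.7.1.1, background-subtracted and unscaled between arrays, and a table of processed intensity values from the same arrays, in which 0.1 stands for nothing measured. Set against the scanner output, that table was linear and not scaled between arrays, which differs from the methods, where it is called normalized data without a named method. The members and the lists of other miRNAs were chosen with earlier results of these data known.

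Control spots and outlier spots (902 to 1052 an array) were left out, and none was saturated. Spots were averaged to probes and probes to miRNAs. Signals were divided by the 75th percentile over 201 miRNAs above background on all arrays, multiplied by the mean percentile, set to a floor of 5.20 (the highest, over arrays, of each array's lowest signal above background) and converted to log2. Groups were compared by limma 3.58.1 in R 4.3.3 over all 12 arrays without covariates, and by exact two-sided permutation tests in scipy 1.17.1. The fit was tested on simulated data. The number of arrays limits the precision, and since the labels do not say how arrays were drawn beyond the replicate number, p-values measure the spread between arrays.

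Named miRNAs were the members, the other products of their hairpins, the 3 of the endothelial list with the smallest p in each comparison, and the 3 most like each member. Alternatives covered background correction, probe summary, scaling, floor, filter, left-out arrays, replicate and slide blocks and the methods' t-test. The normexp background correction added an offset of 50, which shrinks log2 ratios of weak signals. The setting without the slide that holds only MI arrays was chosen after seeing the data. The planned difference of miR-221-3p and miR-222-3p within arrays was not computed, since miR-221-3p was above background on 1 array.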

Additional observations from a re-analysis of the deposited data

Results flagged for a closer look

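The log2 signal of miR-126a-3p on MI replicate 1, 9.85, stood apart from the other 3 MI arrays, and its gap to the nearest of them took 0.982 of the range of the group, above Dixon's 95% critical value for 4 samples. It was the only one of 15 groups of 4 arrays examined for the members and the arm difference, and chance marks about 1 in 20 groups. Without this array the MI to Sham log2 ratio of miR-126a-3p was 0.13 and the YQFM to MI ratio -0.13.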

How the results depend on the processing

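No member was called in any of 258 tested results under alternatives, the lowest limma adjusted p being 0.0546 (miR-126a-3p, MI to Sham, brightest probe, log2 ratio 0.50). Several ratios near 0 changed sign. With the slide as a fixed block the MI to Sham log2 ratio turned to -0.0396 for miR-126a-3p and 0.102 for miR-126a-5p. The YQFM to MI ratio of miR-126a-5p turned to -0.194 with this block, which is by design the slide 2 difference of YQFM replicate 1 and MI replicate 4. With a random block the YQFM to MI ratio of miR-126a-5p turned to -0.0408. The YQFM to Sham ratio of miR-126a-3p turned to 0.12 with the total gene signal, 0.16 with the authors' values, 0.12 with the percentile over all miRNAs, 0.16 without scaling, 0.12 with the brightest probe and 0.0453 without the 2 arrays with conflicting labels. For miR-126a-5p the MI to Sham ratio turned to 0.0102 (normexp), 0.0724 (total gene signal), 0.0291 (quantile), 0.14 (brightest probe) and 0.26 (without slide 1). Its YQFM to MI ratio turned to -0.00496 (total gene signal), -0.0779 (brightest probe) and -0.31 (without slide 1). Its YQFM to Sham ratio turned to 0.0401 (normexp), 0.0675 (total gene signal), 0.107 (authors' values), 0.0634 (all miRNAs), 0.0544 (quantile), 0.104 (no scaling) and 0.0637 (brightest probe). The MI to Sham ratio of miR-222-3p turned to 0.00672 (normexp), 0.0739 (total gene signal), 0.0865 (all miRNAs), 0.112 (quantile), 0.0512 (no scaling), 0.0651 (brightest probe) and 0.0755 (without slide 1), and with the authors' values, where nothing measured is 0.1, it was -1.29. The difference of the miR-126a arms turned to -0.13 for MI minus Sham without slide 1, to 0.19 for YQFM minus MI without slide 1 and on slide 2, and to -0.0451 for YQFM minus Sham with normexp. The cause was not tested.

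Leaving out 1 array at a time gave, for MI to Sham, YQFM to MI and YQFM to Sham in that order, log2 ratios of 0.13 to 0.28, -0.27 to -0.13 and -0.0725 to 0.0613 for miR-126a-3p. For miR-126a-5p they were -0.23 to 0.015, -0.0679 to 0.18 and -0.13 to 0.0123, and for miR-222-3p -0.10 to 0.17, 0.15 to 0.45 and 0.14 to 0.45. For the arm difference they were 0.25 to 0.49, -0.44 to -0.20 and 0.04 to 0.08.

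The 19 miRNAs called in MI versus Sham became 5 with normexp (all lower), 3 with the percentile over all miRNAs, 2 with quantile normalization (1 higher and 1 lower), 2 with the brightest probe, 7 without a filter, 7 with only miRNAs above background on all arrays, 10 with the replicate block, 6 by the methods' unpaired test, 58 without the 2 conflicting arrays, and 0 with the total gene signal, the authors' values, no scaling, either slide block or without slide 1. It was 4 to 62 over left-out arrays, 62 without MI replicate 4 and 29 without YQFM replicate 1. The 0 called in YQFM versus MI became 1 with normexp, 2 with quantile normalization, 1 with the brightest probe and 28 without the conflicting arrays, and was 0 to 28 over left-out arrays (28 without MI replicate 4, 23 without YQFM replicate 1). In YQFM versus Sham it stayed 0 in every setting run. The median over all tested miRNAs was -0.04 for MI to Sham, where it moved by over 0.1 to 0.10 with the total gene signal and 0.14 with the brightest probe. It was -0.01 for YQFM to MI, where it moved to 0.10 without scaling. It was -0.11 for YQFM to Sham, where it moved to 0.03 without scaling and to values from -0.00172 to 0.00173 with normexp, the percentile over all miRNAs, the total gene signal and the brightest probe. MiR-296-5p turned to 0.21 (MI to Sham) and -0.30 (YQFM to MI) and miR-100-5p to 0.38 (YQFM to MI) with the slide as a fixed block, and miR-92a-3p to 0.0116 (MI to Sham) with the brightest probe.

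Arrays with miR-221-3p above background rose from 1 to 5, and with miR-222-3p from 4 to 11, with the authors' values (5 and 11) and the software's total gene signal (5 and 11). That total stood at 1075 for miR-221-3p on MI replicate 2 beside a sum of 5.75 over its probes, and 49 to 60 miRNAs an array had a total over 2 times that sum. Same-numbered arrays did not pair, since the correlations of their deviations ran from -0.64 to 0.32 with 4 of 12 over 0.1. The replicate block changed no member's call, and its count of 10 is that given for MI versus Sham. Signals near background limit miR-126a-5p, not above it on 2 MI arrays, and miR-222-3p, above it on 4 of 12 arrays.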
